A study of Bos taurus with 32 samples.

Results

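SCAN-domain zinc finger genes were followed through preimplantation development of cattle embryos. The group holds the 20 genes whose symbol in the deposited tables starts with ZSCAN or ZKSCAN, or is SCAND1, out of 19834 genes listed in at least 1 of 4 stage tables. The rule for the choice used symbols only, not levels, though earlier results of these data were known when it was made. The tables list 18 of the 20 genes at the 4-6 cell stage, 19 at the 9-16 cell stage, 16 at the morula stage and 18 at the blastocyst stage, and 16 genes stand in all 4 tables.

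The libraries came from pools of 15 Bos taurus embryos made by in vitro production, per the labels. Embryos were cultured with FGF2, LIF and IGF1, a mix abbreviated FLI, or without the mix (control), and were collected at the 4-6 cell, 9-16 cell, morula or blastocyst stage. Each of the 8 groups has 4 libraries, 32 in all, and the comparison asks what the added cytokines change in the embryonic transcriptome. No label says that libraries of a group came from separate cultures, so a p-value here speaks only of how far such pools lie apart. A pool also mixes all cells of its embryos, so that fewer cells expressing a gene and less RNA per cell cannot be told apart.

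The SCAN domain is a short stretch of protein through which zinc finger proteins pair with each other. ZSCAN proteins carry a SCAN domain and DNA-binding zinc fingers. ZKSCAN proteins also carry a KRAB domain. In many zinc finger proteins this domain recruits the co-repressor TRIM28 and, through it, enzymes that compact chromatin. Whether the KRAB domains of the ZKSCAN members do so was not tested. SCAND1 has a SCAN domain but no zinc fingers and can pair with the other members. ZSCAN4 is the best known member. In mouse and human embryos it is transcribed in a burst when the embryo first switches on its own genome, and in mouse embryonic stem cells it is linked to telomere lengthening. In cattle the main wave of genome activation falls late in the cleavage stages.

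On the build ARS-UCD1.2, ZSCAN4 (ENSBTAG00000038947) lies on chromosome 18 from 65102323 to 65103788, plus strand, with 3 exons that cover 1251 bases. The group includes 7 genes within 252 kb on chromosome 23, from 30316678 to 30568915. They are ZSCAN12, ZSCAN31, ZSCAN26, ZKSCAN4, ZSCAN9, ZKSCAN8 and ZSCAN16. A further 3, ZKSCAN1, ZSCAN25 and ZKSCAN5, lie within 488 kb on chromosome 25, from 36405295 to 36893778. SCAND1 is a single exon of 832 bases on chromosome 13. No member shares exon bases with another listed gene.

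Depth ran from 7013325 to 169438740 reads in 30 libraries. Control morula replicate 4 held 83409 reads and control blastocyst replicate 6 held 2995, and both were left out unless stated. Several libraries stood apart in the level of short genes (exons under 1000 bases) against long genes (over 4000 bases), given here as a log2 difference from the stage mean. It was 1.42 and 1.70 in the FLI and control 4-6 cell libraries numbered 6, the deepest of that stage, against -0.65 to -0.22 in the other 6. It was 1.29 in 9-16 cell control 11 against -0.29 to -0.06 in the others of that stage, and 1.501 and 1.16 in morula controls 1 and 3 against -1.15 to 0.04 in the other 5 morula libraries. Marker levels are given in CPM, which are counts scaled to the library size after its adjustment by the joint TMM normalisation. Summed oocyte markers fell from between 3993 and 6063 CPM at the 4-6 cell stage to between 26.7 and 105 at the last 2 stages. Summed trophectoderm markers were 20543 to 49563 CPM in blastocysts against 221 to 1290 before. Of 4 epiblast markers SOX2 was not listed under that symbol at any stage, and NANOG was not listed at 4-6 cells. The markers listed summed to under 92.0 CPM at 4-6 cells and to 1107 to 3282 CPM in morulae and blastocysts. Summed cumulus cell markers were 285 to 385 CPM in 4-6 cell libraries, most of it STAR and HAS2, with the FSH receptor not listed, 189 to 325 CPM in 9-16 cell libraries and 12.8 to 35.1 CPM in morulae and blastocysts. Their part in the results was not tested.

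Of the 16 members in all 4 tables, ZSCAN4 had the widest swing between its highest and lowest stage mean. Levels across stages are CPM after 1 joint normalisation of the reads recovered from all 4 tables. At the 4-6 cell stage ZSCAN4 read 0.210, 1.12, 1.33 and 0.184 CPM in the controls and 0.987, 1.21, 1.14 and 0.141 CPM in the FLI libraries, from 4 to 85 reads each. At the 9-16 cell stage it read 81.9, 61.0, 73.6 and 91.1 CPM in the controls and 98.1, 85.8, 97.6 and 101 CPM in the FLI libraries. Every 9-16 cell library lay above every 4-6 cell library. The stage mean rose from 0.790 ± 0.516 CPM to 86.3 ± 13.8 CPM (SD, n = 8 each), a ratio of 109.

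In morulae ZSCAN4 stood at 36.7, 30.7 and 39.7 CPM in the controls and 32.9, 26.5, 48.0 and 63.0 CPM in the FLI libraries. In blastocysts it stood at 3.18, 3.67 and 6.29 CPM in the controls and 4.92, 20.4, 4.35 and 8.60 CPM in the FLI libraries. The 9-16 cell and morula libraries overlapped at a single point, where the highest morula (FLI 7) lay just above the lowest 9-16 cell library (control 11). No blastocyst library reached the lowest morula library, and all lay above the highest 4-6 cell library.

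All 3 steps of ZSCAN4 passed the test, limma on log2(CPM + 1) over 13388 genes with Benjamini-Hochberg adjustment. The log2 difference was 5.65 ± 0.24 (SE) from 4-6 to 9-16 cells (adjusted p = 5.9e-17), -1.15 ± 0.25 from 9-16 cells to morula (adjusted p = 0.000165) and -2.50 ± 0.26 from morula to blastocyst (adjusted p = 8.3e-09). On this scale the first step is understated, since the 4-6 cell level is near the added 1. Each step was also called in control embryos alone (5.56, -1.08 and -2.81) and in FLI embryos alone (5.74, -1.22 and -2.20). Each stage was collected apart from the others, and an effect of the collection and one of the stage cannot be told apart.

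**Figure D1:**
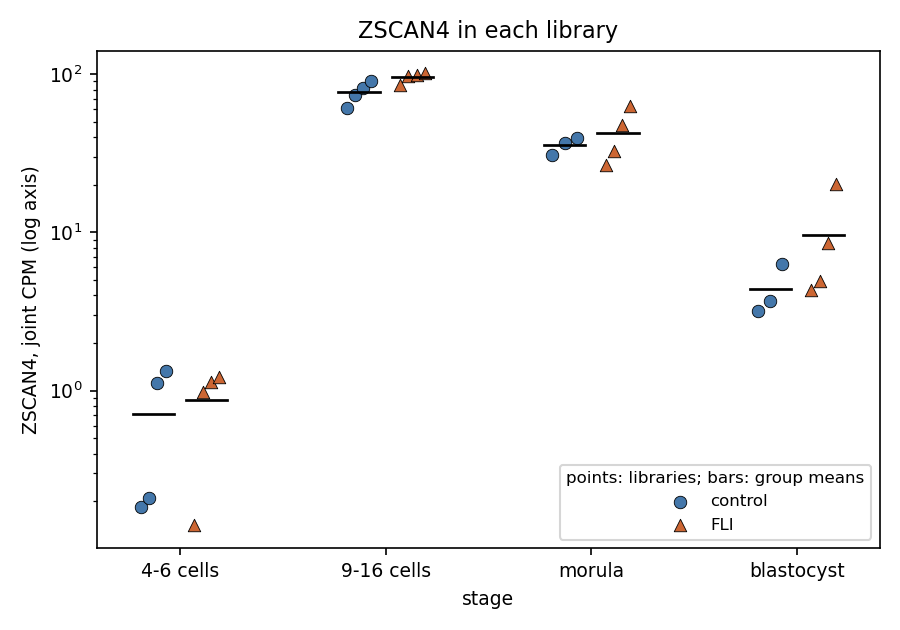
ZSCAN4 in 30 libraries by stage, in jointly normalised CPM on a log axis, with control libraries as circles, FLI libraries as triangles and bars at the group means. The 4-6 cell libraries lie between 0.141 and 1.33 CPM and the 9-16 cell libraries between 61.0 and 101 CPM, and the level is lower again in morulae and blastocysts.

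Per kb of exon, ZSCAN4 ranked 13th of the members listed at the 4-6 cell stage and 2nd, after SCAND1, at each later stage. Its share of the members' summed CPM per kb was 0.213% at 4-6 cells, 15.7% at 9-16 cells, 4.58% in morulae and 1.15% in blastocysts.

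The other members did not share 1 course. Among the 16 genes in all 4 tables, the highest stage mean was at 4-6 cells for 7, at 9-16 cells for 4, in morulae for 2 and in blastocysts for 3. From 4-6 to 9-16 cells, 8 of the 15 members tested passed the test, 4 higher and 4 lower, against 44.8% of all genes (19.2% higher and 25.6% lower). From 9-16 cells to morula all 15 passed, 5 higher and 10 lower, against 81.5% of all genes (44% higher and 37.5% lower). From morula to blastocyst 6 passed, 3 higher and 3 lower, against 46.9% of all genes (22.4% higher and 24.5% lower). The median log2 difference of the members at these steps was 0.02, -1.15 and -0.02, and that of all genes was -0.12, 0.20 and -0.10. The median of all genes at the second step depended on the scaling, at 0.08 with DESeq2 size factors and -0.33 with plain library totals, and the members' median was -1.28 and -1.73 there. With plain totals 42.5% of all calls at that step were higher, against 54.0% with the joint normalisation, and ZKSCAN7 was the member that lost its call.

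The steps were also counted in each treatment alone. At the first step 4 members were called in control embryos alone, 2 higher and 2 lower, against 26% of all genes (13.7% higher and 12.3% lower). In FLI embryos alone 4 were called, also 2 higher and 2 lower, against 31.2% (15.2% higher and 16% lower). At the second step 14 were called in each treatment, 4 higher and 10 lower, against 73.6% of genes in control embryos (39% higher and 34.6% lower) and 73.3% in FLI embryos (40.6% higher and 32.6% lower). At the last step 6 were called in control embryos, 4 higher and 2 lower, against 32.8% of genes (17.6% higher and 15.2% lower). In FLI embryos 3 were called, all lower, against 40.7% (18.8% higher and 22% lower).

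Among the ZSCAN genes, ZSCAN26 and ZSCAN31 of the chromosome 23 cluster were abundant in cleavage embryos and fell. ZSCAN26 ran from 80.1 to 146 CPM (median 93.2) at 4-6 cells, 32.7 to 61.1 (median 43.1) at 9-16 cells, 3.42 to 8.69 (median 6.09) in morulae and 6.37 to 8.93 (median 7.79) in blastocysts. The first 3 stages did not overlap. Its log2 steps were -1.18 ± 0.16 (adjusted p = 6.5e-07) and -2.76 ± 0.17 (adjusted p = 1.4e-14), while the last, 0.37 ± 0.17, did not pass (adjusted p = 0.081).

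ZSCAN31 ran from 43.6 to 105 CPM (median 48.8) at 4-6 cells, 32.0 to 49.1 (median 35.8) at 9-16 cells, 2.52 to 6.42 (median 5.21) in morulae and 4.43 to 11.2 (median 7.11) in blastocysts. The first 2 stages overlapped and both lay above every later library. Its log2 steps were -0.53 ± 0.17 (adjusted p = 0.012), -2.88 ± 0.18 (adjusted p = 2.7e-14) and 0.61 ± 0.18 (adjusted p = 0.0082). The first was called in FLI embryos alone (-0.72) but not in control embryos alone (-0.35, adjusted p = 0.32), and the last in control embryos alone (0.91) but not in FLI embryos alone (0.30, adjusted p = 0.33). The test of the difference between treatments passed at neither step (adjusted p = 1 and 0.30).

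ZSCAN20, ZSCAN29 and ZSCAN12 also fell from 9-16 cells to morula, by 2.05, 1.60 and 0.66 on the log2 scale (adjusted p = 7.0e-08, 1.3e-06 and 8.7e-05). ZSCAN20 went from a stage mean of 21.9 ± 2.83 CPM (n = 8) to 5.15 ± 2.62 (n = 7). ZSCAN29 went from 13.3 ± 2.68 to 4.58 ± 3.10 CPM and passed again on the way to the blastocyst, at 8.42 ± 4.45 CPM (log2 0.91 ± 0.26, adjusted p = 0.0047). That rise was called in control embryos alone (1.69) and not in FLI embryos alone (0.13, adjusted p = 0.79). The treatment difference had an adjusted p of 0.16. ZSCAN12 ran from 6.96 to 13.1 CPM at 9-16 cells and from 4.44 to 7.22 in morulae, so its stages overlapped.

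ZSCAN2, ZSCAN25 and ZSCAN16 rose where these genes fell. ZSCAN2 ran from 0.344 to 1.61 CPM (median 1.19) at 4-6 cells, 1.09 to 5.17 (median 3.19) at 9-16 cells, 7.45 to 26.7 (median 18.3) in morulae and 3.58 to 27.9 (median 5.67) in blastocysts. Every morula library lay above every 9-16 cell library. Its log2 steps were 0.89 ± 0.27 (adjusted p = 0.0093), 1.996 ± 0.29 (adjusted p = 4.0e-07) and -0.99 ± 0.30 (adjusted p = 0.0075). The first was called in neither control embryos alone (0.99, adjusted p = 0.061) nor FLI embryos alone (0.80, adjusted p = 0.12). The last was called in FLI embryos alone (-1.03) and not in control embryos alone (-0.95, adjusted p = 0.11). The highest blastocyst value came from FLI replicate 5, and the other 6 lay between 3.58 and 9.39 CPM.

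ZSCAN25 ran from 0.437 to 2.26 CPM (median 1.57) at 9-16 cells and from 2.68 to 17.8 (median 9.44) in morulae, with no overlap. Its log2 step was 1.81 ± 0.24 (adjusted p = 1.3e-07), after a fall of 0.71 from 4-6 to 9-16 cells (adjusted p = 0.014). That fall was called in control embryos alone (-0.91) and not in FLI embryos alone (-0.51, adjusted p = 0.25).

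ZSCAN16 was close to the floor early, at 0 to 1.16 CPM at 4-6 cells and 0 to 0.633 CPM at 9-16 cells. It ran from 2.86 to 9.96 CPM (median 4.25) in morulae and from 3.09 to 7.97 CPM (median 5.14) in blastocysts. No late library overlapped an early one, and the step into the morula was 2.30 ± 0.19 on the log2 scale (adjusted p = 1.8e-11). ZSCAN16 and ZSCAN26 changed in opposite directions inside the same cluster of 7 genes.

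Of the ZKSCAN genes, which add the KRAB domain, ZKSCAN8 was the member closest to ZSCAN4 in its course. It ran from 2.11 to 4.11 CPM (median 3.42) at 4-6 cells, 8.58 to 21.6 (median 13.8) at 9-16 cells, 4.69 to 10.9 (median 6.08) in morulae and 3.87 to 7.71 (median 5.66) in blastocysts. The first 2 stages did not overlap, and the 9-16 cell and morula libraries did. It rose by 1.81 ± 0.17 on the log2 scale (adjusted p = 1.2e-09) and then fell by 0.95 (SE 0.18, adjusted p = 2.4e-05).

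ZKSCAN1, whose transcript in human cells is also a source of a circular RNA, stayed near 30 CPM in cleavage embryos, with a median of 30.9 CPM at 4-6 cells and 31.0 at 9-16 cells. It ran from 5.93 to 10.6 CPM in morulae and from 1.80 to 4.49 CPM in blastocysts. These 3 levels did not overlap from 9-16 cells on. It fell by 1.92 and then by 1.05 on the log2 scale (adjusted p = 1.2e-11 and 6.7e-06).

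ZKSCAN5 and ZKSCAN2 likewise fell into the morula, by 1.57 and 2.12 (adjusted p = 1.8e-07 and 3.2e-08). ZKSCAN5 kept a stage mean of 11.3 ± 2.99 CPM there, from 34.0 ± 6.24. ZKSCAN2 went from 2.54 to 6.40 CPM at 9-16 cells to 0.0844 to 0.579 CPM in morulae, and 1 blastocyst library had none. ZKSCAN7, low at all stages, rose into the morula by 0.58 ± 0.15 (adjusted p = 0.0010) and into the blastocyst by 0.81 ± 0.16 (adjusted p = 0.00014), from a mean of 0.628 to 1.56 and 3.28 CPM. The first of these rises was called in FLI embryos alone (0.99) and not in control embryos alone (0.18, adjusted p = 0.47), with an adjusted p of 0.69 for the treatment difference.

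SCAND1, the member without zinc fingers, was the most abundant per kb at every stage, at a mean of 175, 275, 626 and 469.9 CPM per kb. Its libraries ran from 75.4 to 333 CPM (median 98.0) at 4-6 cells, 151 to 443 (median 206) at 9-16 cells, 271 to 1035 (median 411) in morulae and 236 to 599 (median 426) in blastocysts. The 2 highest 4-6 cell values, 333 and 293 CPM, were those of the libraries numbered 6, and the highest 9-16 cell value, 443 CPM, that of control 11, the libraries in which short genes stood high. The other 6 libraries at 4-6 cells lay between 75.4 and 107 CPM. The rise into the morula passed (log2 1.17 ± 0.33, adjusted p = 0.0020), though not in FLI embryos alone (0.76, adjusted p = 0.12). The 2 highest morula values, 1035 and 738 CPM, were those of controls 1 and 3, in which short genes also stood high, and the other 5 lay between 271 and 543 CPM. The step from 4-6 to 9-16 cells was 0.83 ± 0.31 (adjusted p = 0.033). Over 30 fits without 1 library its adjusted p ran from 0.0032 to 0.091, and 13 of them lost the call. The step also lost its call in edgeR's quasi-likelihood test (adjusted p = 0.11) and with same-numbered libraries as a block. Without the libraries numbered 6 and control 11, left out after the data were seen, it was 1.07 (adjusted p = 0.0007). Over the 3 steps that setting called 8, 15 and 7 members, against 49.7%, 84.6% and 56.4% of all genes.

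**Figure D2:**
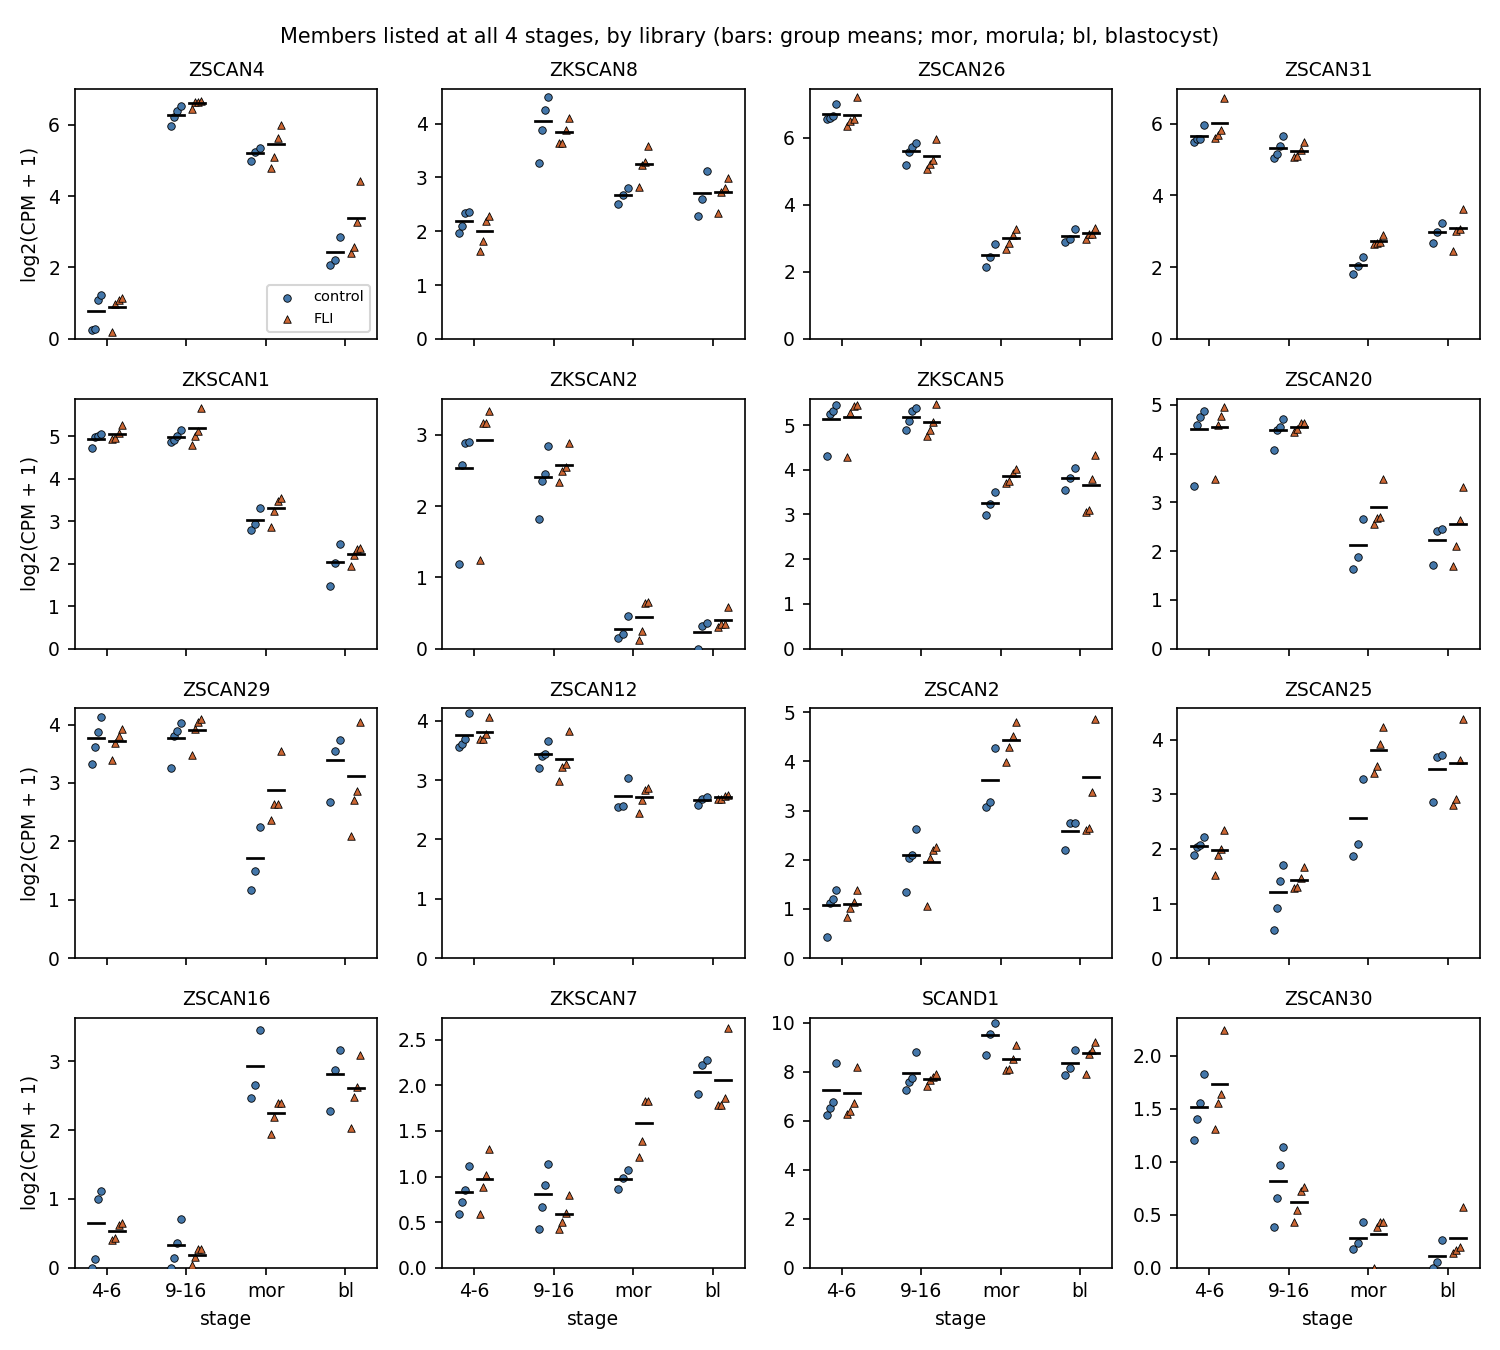
Each of the 16 members listed at all 4 stages in 30 libraries, as log2(CPM + 1), with control libraries as circles, FLI libraries as triangles and bars at the group means; the vertical scale differs between panels. ZSCAN26, ZSCAN31, ZKSCAN1, ZKSCAN2 and ZSCAN20 drop between 9-16 cells and morula, while ZSCAN16, ZSCAN2 and ZSCAN25 go up.

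The remaining 5 members were scarce. ZSCAN30 went from a mean of 2.09 ± 0.770 CPM at 4-6 cells (n = 8) to 0.156 ± 0.161 in blastocysts (n = 7). It missed the mean of 1 CPM needed for the test of the stage steps. ZSCAN10, which supports pluripotency in mouse embryonic stem cells, averaged 0.448, 0.517 and 0.710 CPM in the 3 tables that list it, the morula table not among them. ZKSCAN4, ZSCAN9 and ZSCAN23 had stage means of 0.129 to 0.298 CPM in the 1 or 2 tables that list each.

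Genes outside the group were compared with the course of ZSCAN4 over the 30 libraries, among 13387 genes, as a description without a test, since the libraries share stages. The highest Pearson r on log2(CPM + 1) was that of NFYA (0.976), the DNA-binding subunit of the CCAAT-binding factor NF-Y. NFYA had stage means of 7.45, 116, 61.6 and 27.7 CPM. Also high were KLF17, a Krüppel-like zinc finger factor (0.965), SUPT4H1, a subunit of a transcription elongation factor (0.953), and SERINC4, of the serine incorporator family (0.952). KLF17 went from 0.139 CPM at 4-6 cells to 481 at 9-16 cells, 75.3 in morulae and 13.8 in blastocysts. Of the members, ZKSCAN8 had an r of 0.83, ZSCAN2 of 0.412 and SCAND1 of 0.400, and the other 11 lay between -0.358 and 0.028.

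SCAN-domain genes with other symbols were counted beside the members. Of 28 such genes 24 were listed and 23 tested. From 4-6 to 9-16 cells 4 were higher and 10 lower (median log2 -0.29), from 9-16 cells to morula 10 higher and 8 lower (median 0.16), and from morula to blastocyst 5 higher and 4 lower (median -0.18). Over these steps 44.8%, 81.5% and 46.9% of all genes were called, with medians of -0.12, 0.20 and -0.10, which also stand beside the lists that follow. ZNF394 showed the largest rise of these at the first step, from a mean of 8.10 CPM in both treatments at 4-6 cells to 183 in control and 167 in FLI 9-16 cell embryos (log2 4.19 ± 0.22, adjusted p = 3.8e-15). ZNF197 fell at that step by 1.75 (adjusted p = 2.1e-10). ZNF18 fell into the morula by 3.25 (adjusted p = 5.4e-14), and ZNF174 rose by 1.72 (adjusted p = 5.7e-09).

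Of 20 genes named beside ZSCAN4 in human embryos at genome activation, 5 were listed and 3 could be tested, and all 3 rose from 4-6 to 9-16 cells. KLF17 rose by 8.54 ± 0.28 on the log2 scale (adjusted p = 2.6e-19), the translation factor EIF1AX by 1.86 ± 0.44 (adjusted p = 0.0010) and the cyclin CCNA1 by 0.51 ± 0.15 (adjusted p = 0.0062). Into the morula CCNA1 and EIF1AX rose further, by 2.05 and 2.89 (adjusted p = 2.1e-12 and 2.0e-06), and KLF17 fell by 2.69 (adjusted p = 2.3e-09). Into the blastocyst KLF17 fell by 2.28 and CCNA1 fell by 2.96 (adjusted p = 4.6e-07 and 2.8e-14).

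Telomere and recombination genes, a setting in which mouse ZSCAN4 has been studied, moved in both directions, with 15 of 17 tested. From 4-6 to 9-16 cells 3 rose and 6 fell (median -0.29). DAXX, a histone chaperone, rose by 1.91 (adjusted p = 5.8e-05), RIF1, which limits replication origins, by 1.58 (adjusted p = 4.3e-05), and the shelterin subunit TERF2IP by 0.98 (adjusted p = 0.00053). The maintenance methyltransferase DNMT1 fell by 1.22 (adjusted p = 8.1e-06). From 9-16 cells to morula 4 rose and 5 fell (median -0.30), led by UHRF1, the partner of DNMT1, which fell by 5.31 (adjusted p = 5.5e-18), and the shelterin subunit TERF1, which rose by 2.39 (adjusted p = 2.3e-11). From morula to blastocyst 2 rose and 5 fell (median -0.35). The 9, 9 and 7 called of 15 stand beside 44.8%, 81.5% and 46.9% of all genes.

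The co-repressors that many KRAB domains recruit were all listed and tested (11 of 11). From 4-6 to 9-16 cells 3 rose and none fell (median 0.15), namely CBX3, which binds methylated histone H3 (log2 3.91 ± 0.22, adjusted p = 3.0e-14), ATF7IP, the partner of the histone methyltransferase SETDB1 (3.49 ± 0.18, adjusted p = 4.9e-15), and CHD3 (0.59 ± 0.20, adjusted p = 0.017). From 9-16 cells to morula 6 rose and 2 fell (median 0.88). TRIM28 rose by 2.25 ± 0.35 (adjusted p = 1.4e-06) and SETDB1 fell by 2.37 (SE 0.31, adjusted p = 1.15e-07). From morula to blastocyst 1 rose and 6 fell (median -0.88). The 3, 8 and 7 called of 11 stand beside the same 44.8%, 81.5% and 46.9% of all genes.

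Between FLI and control embryos no member passed the test at any stage, among 14, 13, 14 and 14 members tested in stage order, and no gene of the whole table did (0% at each stage). The values here are the deposited signal, on log2(signal + 1), and each stage was fitted alone. At an unadjusted p under 0.05 limma counted 12, 293, 4203 and 2049 genes. edgeR's quasi-likelihood test called 32 genes higher and 859 lower in FLI morulae and none at the other stages. DESeq2 called 492 higher and 2055 lower in morulae, 75 higher and 399 lower in blastocysts and none earlier. No member was called by edgeR at any stage.

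At the 4-6 cell stage the members with the smallest p were ZSCAN31, ZKSCAN8, ZSCAN30 and ZKSCAN7, with log2 differences (FLI minus control) of 0.28 ± 0.25, -0.24 ± 0.22, 0.18 ± 0.23 and 0.13 ± 0.24 (adjusted p = 1 for each). No member's groups were apart at this stage, against 0.344% of all genes. At the 9-16 cell stage ZSCAN4 had the smallest p of the members. Its deposited signal was 99.3, 75.4, 84.6 and 114 in controls and 117, 103, 111 and 122 in FLI libraries, so the groups overlapped through control 13. The difference was 0.29 ± 0.22 (adjusted p = 0.91, 95% interval of limma's test -0.18 to 0.76). ZSCAN25, ZSCAN26 and ZKSCAN5 came next, at 0.30 ± 0.30, -0.21 ± 0.26 and -0.16 ± 0.24 (adjusted p = 0.91 for each). Here, too, no member's groups were apart, against 1.8% of all genes.

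In morulae the differences were larger, and 7 of 14 members had groups that did not overlap, against 21.3% of all genes. The FLI libraries were higher for ZKSCAN5, ZKSCAN7, ZKSCAN8, ZSCAN25, ZSCAN29 and ZSCAN31 and lower for ZSCAN16. Over all 13254 genes tested, the FLI libraries were all higher for 1157 and all lower for 1663. The median log2 difference was 0.49 over the members and 0.08 over all genes.

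ZSCAN25 read 2.42, 2.99 and 7.92 in control morulae and 14.0, 11.4, 8.42 and 9.66 in FLI morulae. Control 7 lay just under the lowest FLI library. The difference was 1.24 ± 0.36 (limma adjusted p = 0.073, 95% interval 0.44 to 2.04). In the authors' deposited table the gene had a log2 fold change of -1.64, written there as control minus FLI, at a false discovery rate of 0.012, and 10.6% of that table's rows were under 0.05. No other member was under 0.05 in the authors' deposited table at any stage, against 0%, 0.0723% and 4.55% of the rows at the 4-6 cell, 9-16 cell and blastocyst stages. The authors' tables also hold morula control 4 and blastocyst control 6, which were left out here. Whether the authors' test used these 2 libraries is not stated. The authors' shares are over all rows listed (17446 in morulae), while the limma fit here took 13254 rows after a filter on low values.

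ZSCAN29 read 1.12, 1.66 and 3.39 in control morulae and 8.40, 4.19, 4.68 and 3.81 in FLI morulae, with control 7 again nearest to the FLI libraries. Its difference was 1.05 ± 0.34 (adjusted p = 0.085). ZSCAN31 differed by 0.59 ± 0.24 (adjusted p = 0.13).

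SCAND1 pointed the other way, at 935, 674 and 371 in control morulae and 213, 226, 485 and 339 in FLI morulae. Controls 1 and 3 were high and control 7 lay among the FLI libraries. The difference was -1.05 ± 0.41 (adjusted p = 0.12). ZSCAN4 read 33.1, 28.1 and 35.9 in control and 25.9, 21.4, 42.8 and 57.9 in FLI morulae, and its difference was 0.09 ± 0.35 (adjusted p = 0.87, 95% interval -0.69 to 0.87).

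The count of 0 in morulae rested on control 7. Without that library limma called 4620 genes (34.8%, with 13.9% higher and 20.9% lower) and 5 members. Of these members ZSCAN25, ZSCAN29, ZSCAN2 and ZSCAN20 were higher in FLI embryos and SCAND1 was lower. DESeq2 with all 7 libraries called 3 members, ZSCAN25 and ZSCAN29 higher and SCAND1 lower, against 19.2% of genes. The level of short against long genes moved with the groups, at a mean of 0.826 (-0.182 to 1.501) in control and -0.601 (-1.15 to 0.0396) in FLI morulae. With this level as a covariate, chosen after the data were seen, the members' median was 0.31, that of all genes 0.01, and SCAND1 stood at 0.04. Other levels moved with the morula groups as well. Mitochondrial reads took 4.30% to 6.11% of control and 1.39% to 3.95% of FLI libraries. Summed hypoblast markers (4 of 4 listed) ran from 164 to 482 CPM in control and from 481 to 924 CPM in FLI morulae, summed oocyte markers from 52.9 to 105 and from 28.6 to 60.4 CPM, and summed sperm markers (3 of 5 listed) from 3.62 to 17.1 and from 0.756 to 4.09 CPM, with AKAP4 and ODF1 not listed. The part of these in the member differences was not tested.

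**Figure D3:**
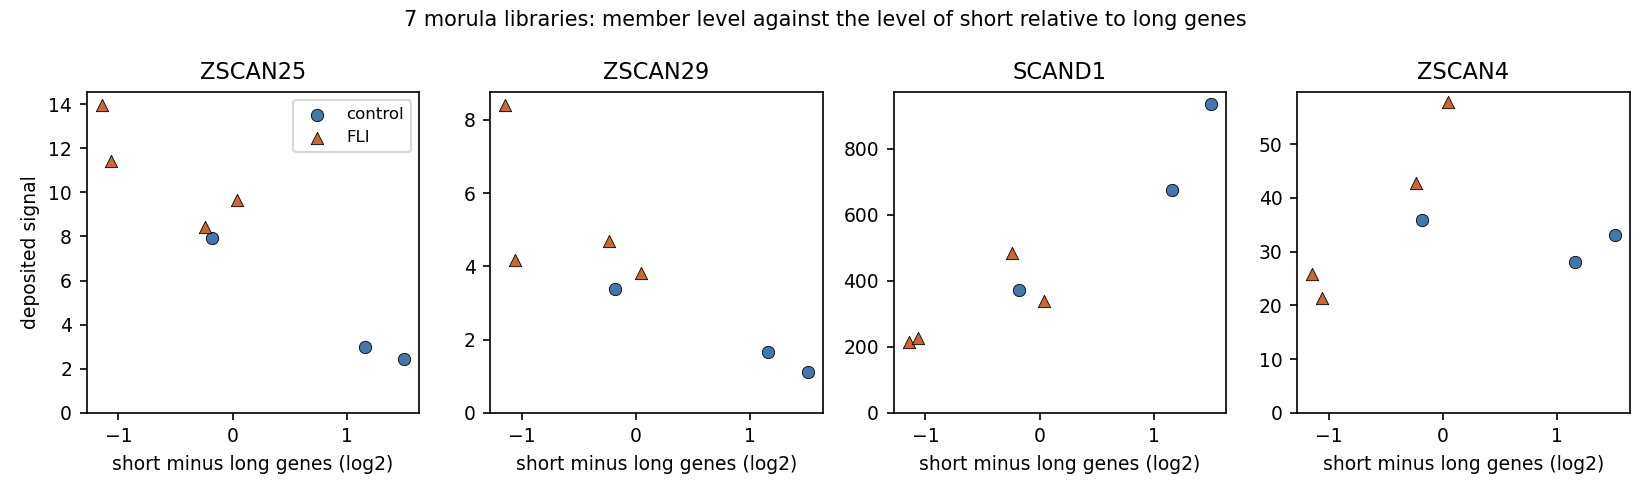
The deposited signal of 4 members in the 7 morula libraries used against the log2 level of short relative to long genes in the same library, with controls as circles and FLI libraries as triangles. Controls 1 and 3, at 1.501 and 1.16 on the horizontal axis, hold the lowest ZSCAN25 and ZSCAN29 values and the highest SCAND1 values, and control 7 lies near the FLI libraries.

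In blastocysts no member's groups were apart, against 12.8% of all genes. Summed blood and endothelium markers (3 of 6 listed) did not overlap there, at 79.2 to 89.2 CPM in control and 105 to 131 CPM in FLI libraries. CDH5, HBB and PTPRC were not among those listed. None of the 3 markers was called between FLI and control blastocysts, and their part was not tested. ZSCAN4 read 3.15, 3.61 and 6.02 in control and 4.89, 20.1, 4.11 and 8.60 in FLI blastocysts, a log2 difference of 0.79 ± 0.46 (adjusted p = 0.43, 95% interval -0.22 to 1.79). The FLI mean of 9.42 ± 7.36 (n = 4) was carried by replicate 6. ZSCAN2 differed by 0.81 ± 0.49 (adjusted p = 0.45), and by 0.31 without FLI replicate 5, the library that stood highest. SCAND1 differed by 0.38 ± 0.38 (adjusted p = 0.66) and ZSCAN29 by -0.39 ± 0.44 (adjusted p = 0.71).

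**Figure D4:**
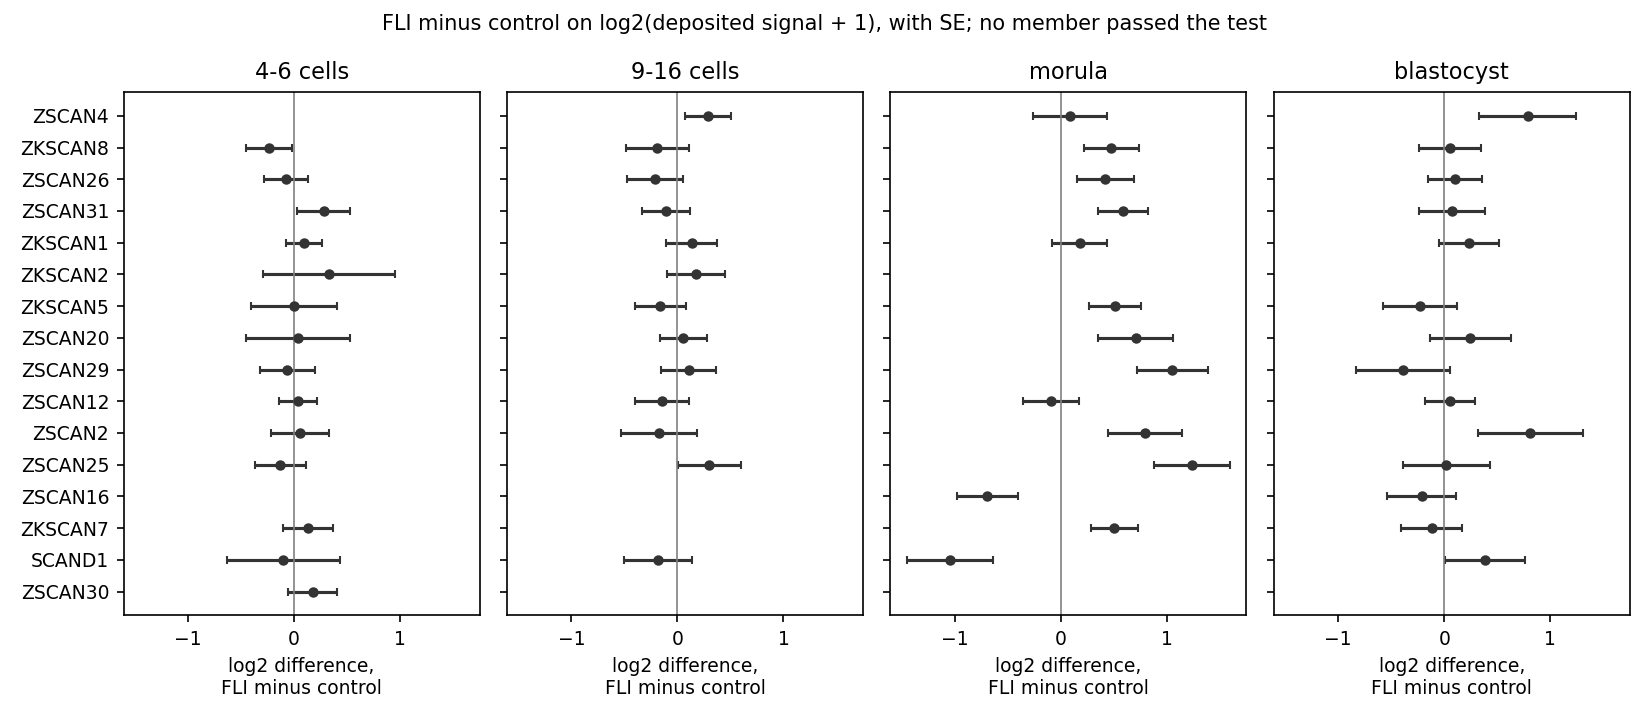
Log2 difference (FLI minus control) of each member tested, on log2(deposited signal + 1), with its SE, in 1 panel per stage. Values lie close to 0 at the 2 cleavage stages, and in morulae most lie above 0 while SCAND1 (-1.05) and ZSCAN16 (-0.69) lie below.

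The difference between FLI and control embryos in a stage step was tested directly and passed for no member and no gene at any of the 3 steps (0% each). At an unadjusted p under 0.05 limma counted 86, 881 and 2922 genes and edgeR's quasi-likelihood test, which also called none, 126, 734 and 2881. For ZSCAN4 the difference of the step was 0.17 ± 0.48, -0.14 ± 0.50 and 0.60 ± 0.52 (adjusted p = 1, 0.93 and 0.44). Over the step into the blastocyst the members with the smallest p were ZSCAN29 at -1.56 ± 0.51, ZSCAN25 at -1.33 ± 0.50 and ZKSCAN7 at -0.72 ± 0.32 (adjusted p = 0.16, 0.18 and 0.20). Without morula control 7 the first 2 of these passed (adjusted p = 0.044 and 0.042), against 5.6% of all genes. Without both 4-6 cell libraries numbered 6 and 9-16 cell control 11, ZSCAN29 (-1.43, adjusted p = 0.042) and SCAND1 (1.48, adjusted p = 0.039) passed, against 18% of all genes.

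The other SCAN-domain genes, the genome activation genes, the telomere and recombination genes and the KRAB co-repressors had no member called between FLI and control embryos at any stage. In morulae their median log2 differences were 0.30, 0.07, 0.04 and 0.10, beside 0.08 for all genes.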

How the data were processed

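FastQC, HISAT2, featureCounts, edgeR and the build ARS-UCD1.2 are named in the submitters' processing notes, with no role or version. The strand setting is not given, so reads from an antisense transcript could not be told apart. The kit named in the labels is a low-input SMART-Seq kit after PicoPure isolation. The deposited tables hold a scaled signal per gene and library. Within each column 100% of the deposited signal values were whole multiples of its smallest step, within 0.001, which gave whole reads. Per the file headers, further deposited columns give log2 fold changes, a likelihood ratio, which is a score, and p-values and false discovery rates of the authors' own test. Signal columns not matched to a library numbered 0.

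FLI was compared with control within each stage by limma 3.58.1 (trend, robust) in R 4.3.3 on log2(signal + 1), for rows with a mean of at least 1. A gene was called where p, adjusted by Benjamini-Hochberg across every row in the fit, was under 0.05. Stage steps used the recovered reads of 14225 genes in all 4 tables, TMM (edgeR 4.0.16), log2(CPM + 1) and 1 fit of 8 groups over 30 libraries, and a step is the mean of the FLI and control steps. Fold changes on these scales understate low genes. edgeR and DESeq2 1.42.0 on the recovered reads were alternatives, and the code was tested on simulated data.

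Members and lists were chosen with earlier results of these data known. Values were given for ZSCAN4, for the 4 members with the smallest p at a stage, and for called members with the largest steps, up to 5 each way. Other members were given by range. Step values into the morula of ZSCAN12, ZSCAN29, ZKSCAN5 and ZKSCAN8, and the short-gene level, were added after values were seen. The likeness to ZSCAN4 took the 5 highest r, of which 1 is not reported here. All 20 symbols matched the RefSeq gene table (ARS-UCD2.0), used for names only. Same-numbered FLI and control libraries deviated together at 4-6 cells (r = 0.924, 0.815, 0.473 and 0.689), over the limit of 0.1 set for pairing. Among the libraries numbered 7 to 9, however, unmatched pairs reached the same range (0.463 to 0.734), and those numbered 6 were the ones that stood apart. A replicate block changed no call at that stage.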

Additional observations from a re-analysis of the deposited data

Results flagged for a closer look

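Among 82 groups of 4 libraries, 5 held a library far from the other 3 by Dixon's test at its 95% critical value, where chance gives about 1 in 20 groups. SCAND1 stood at a deposited signal of 371 in control 4-6 cell replicate 6, against 93.7 to 131 in the other 3. It stood at 313 in FLI 4-6 cell replicate 6, against 93.2 to 129.7. ZKSCAN2, with 3761 exon bases, was low in that FLI library, at 1.45 against 9.67 to 10.8. ZSCAN12, with 4349 exon bases, was not low there, at 16.7 against 14.2 to 15.6. These 2 libraries are the ones with high levels of short against long genes, 1.70 in the control and 1.42 in the FLI library, and the part of that level in the values was not tested. In FLI blastocyst replicate 5, ZKSCAN7 stood at 5.15 against 2.30 to 2.62, and ZSCAN2 at 27.8 against 5.09 to 8.89. That library had the lowest level of short against long genes of its stage, at -0.796, and the largest depth, 169438740 reads.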

How the results depend on the processing

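Of 324 counts of members called under an alternative, 315 stayed within 1.5 times the reported count. Between FLI and control and for differences of steps the reported counts were 0, and 0 again was taken as unchanged. Many fits of the steps left out only a library of another stage. The total is therefore no measure of how stable the counts are. Between FLI and control morulae, 3 members were called by DESeq2 (19.2% of all genes) and 0 to 5 without 1 library (5 without control 7, 34.8%). From 4-6 to 9-16 cells, 4 were called in control embryos alone (26% of all genes) and 4 in FLI embryos alone (31.2%). The main fit called 8 there (44.8%) and the fit with the shallow libraries 3. From morula to blastocyst, 3 were called in FLI embryos alone (40.7% of all genes) and 2 with the shallow libraries, against 6 (46.9%). The difference of that last step gave 0 to 2 without 1 library, and 2 without both 4-6 cell libraries numbered 6 and 9-16 cell control 11, where 18% of genes were called. With the replicate block, the steps gave 7, 15 and 6 members, and SCAND1 lost the first (adjusted p = 0.057). The shares of all genes called with that block and with the shallow libraries are not given here. Member counts in those fits therefore cannot be set against all genes. No block was possible in morulae, where the deep libraries share 1 number. At 9-16 cells same-numbered pairs had r = 0.285, 0.0746, 0.143 and 0.0628, and unmatched pairs -0.192 to 0.181. In blastocysts same-numbered pairs had r = -0.736, 0.355 and -0.0799. Some same-numbered pairs at each of these stages lay over the limit of 0.1, and the block called 0 members there.

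Signs turned for small differences. ZSCAN4 in FLI against control morulae (0.09) was -0.0666 with the shallow library and -0.16 to 0.31 without 1 library, negative without control 3, FLI 6 or FLI 7. SCAND1 there was 0.0396 with the short-gene level, and ZSCAN29 in blastocysts was 0.44 with the shallow library. For differences of steps, ZSCAN4 was -0.0388 with a pseudocount of 0.1, -0.0442 by edgeR and -0.0448 to 0.32 without 1 library at the first step. At the second it was 0.24 with plain totals and -0.57 to 0.0517 without 1 library. At the third, SCAND1 was -0.15 with the short-gene level and ZSCAN29 0.0335 with the shallow libraries. The cause was not tested. Of 1114 refits of called steps 1070 kept the call. Counts of all genes between FLI and control moved by more than 1.5 times in morulae, from 0 to 32 higher and 859 lower by edgeR, 2547 by DESeq2 and 4620 without control 7, and in blastocysts to 75 higher and 399 lower by DESeq2, 177 lower without control 5, and 153 higher and 233 lower without FLI 8. Members near 0 CPM are limited by depth.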
